A study of Homo sapiens with 2 samples.

Results

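The regions described here are the wide MYC peaks: the sites on chromosomes 1 to 22 at which the authors' peak call for MYC ran over more than 500 bp. They were chosen by their width, the end minus the start of each listed peak. There were 1179 of them among 17321 peaks on these chromosomes, or 6.81% (Wilson 95% interval 6.44 to 7.19), and the deposited list held 17659 peaks in all. The other 16142 peaks on the same chromosomes, of 500 bp or less, are called narrower peaks below. MYC binding had been profiled by ChIP-seq, which sequences the DNA fragments that an antibody pulls down with a protein, in the human neuroblastoma line SH-EP/TET21/N (TET21). This line is a clone of SH-EP cells that carries a MYCN transgene which doxycycline represses. The cells also expressed ectopic full-length (wild-type) MYC, and both libraries came from cells kept for 7 days in 1 µg/mL doxycycline and fixed with 1% formaldehyde for 10 min. One library was the ChIP, made with 2 µg of a rabbit polyclonal anti-MYC antibody produced by the submitters, and the other was input. The labels do not tell ectopic from endogenous MYC. With 1 ChIP library and 1 input library there was no replicate, no test between groups and no replicate error. All intervals below are 95% intervals. They treat peaks or fragments as independent and cover counting error, or for a median the spread among peaks, within this library only.

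MYC is a transcription factor of the basic helix-loop-helix class. It pairs with its partner protein MAX to contact DNA, preferring the E-box, a short palindromic sequence. In cells with much MYC, it is found at a large share of active promoters and at many enhancers. A peak caller draws a peak where overlapping fragments exceed the local background, so a width takes in the fragment length as well as the stretch of DNA that was bound. Sites of a factor that contacts a few bases usually give narrow peaks, and wider ones arise where fragments pile up over a longer stretch. No sequence or gene annotation of GRCh37, the build of the coordinates, was used here, so the regions are named by position and not by gene.

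The width that chose these regions had no gap at 500 bp. Peak numbers fell steadily with width: 2336 peaks were wider than 400 bp, 1179 wider than 500 bp, 579 wider than 600 bp, 211 wider than 750 bp, 44 wider than 1000 bp and 2 wider than 1500 bp. Wide peaks had a median width of 597 bp, with quartiles of 538 and 707 bp and a maximum of 1548 bp, against a median of 218 bp for the narrower peaks. They covered 763.4 kb, or 16.5% of the DNA under all peaks of these chromosomes. The narrowest peaks of the list measured 142 bp, a width shared by 1583 peaks. MACS2, named in the processing notes, by default calls nothing shorter than its fragment length, so 142 bp is read here as that length. A wide peak then spans more than 3.5 fragment lengths. On either side of the limit the peaks had similar values, with a median pileup of 18 ChIP fragments at the summit in both. The 95 peaks up to 10 bp over the limit had a median fold of 9.29 over the local background, and the 79 peaks of 491 to 500 bp had 9.02. Of the 15 peaks that passed the limit by 1 bp the most significant was chr7:45150965-45151465, with a fold of 15.77, and of the 4 peaks of exactly 500 bp it was chr12:58145926-58146425, with a fold of 19.02.

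**Figure D1:**
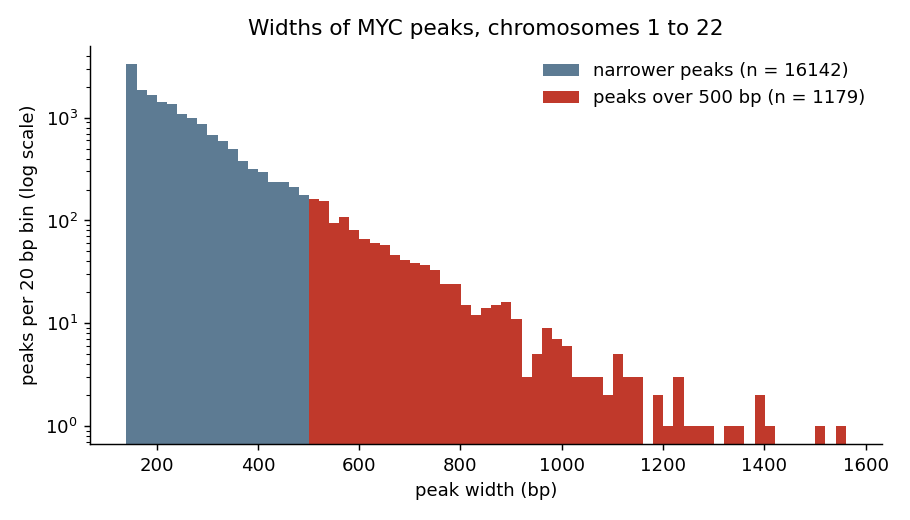
Histogram of the widths of all peaks on chromosomes 1 to 22, with width in bp on the x axis and the number of peaks per 20 bp bin on a log y axis. Wide peaks (1179, red) continue the slope of the narrower peaks (16142, blue) with no gap at 500 bp, out to 1548 bp.

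The widest region was chr16:4321125-4322672. It measured 1548 bp and held 64 fragments at its summit (Poisson interval 49.3 to 81.7). The expected background was 1.32 and the fold 28.02. Its summit lay 241 bp from the lower-coordinate edge and 1306 bp from the other, so the region extended mainly to one side. The next was chr1:173836381-173837886, 1506 bp wide, with 37 fragments and a fold of 12.75. It too had its summit near the lower edge, 376 bp from it against 1129 bp from the other. At chr6:86352447-86353772, a region of 1326 bp with a fold of 27.12, the arrangement was the mirror image, with 1139 bp below the summit and 186 bp above it. By contrast, chr2:198364012-198365288, with a width of 1277 bp and a fold of 16.81, was centred, with 626 bp below its summit and 650 bp above. Great width did not need a high summit. The region chr1:55680043-55681441 was 1399 bp wide with 12 fragments at the summit (6.20 to 20.96), a fold of 7.43, and no other peak within 213.6 kb.

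The other 5 of the 10 widest regions measured 1257 to 1414 bp. They were chr1:244997831-244999244 with a fold of 10.21, chr21:36260801-36262187 with 8.19, chr4:57301456-57302799 with 15.95, chr3:5019939-5021235 with 15.92 and chr22:44419557-44420813 with 11.21. Off-centre summits were found among these as well. The summit of the chromosome 21 region lay 119 bp from its nearer edge, that of chromosome 3 lay 125 bp and that of chromosome 4 lay 219 bp, with 1267, 1171 and 1124 bp on the far side. Of the 10 widest regions, 4 had another peak within 1 kb, those on chromosomes 16, 21, 4 and 6.

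Wide peaks were the stronger sites. Because width, fold and fragment count come from the same call, this is a description of the regions and was not tested. Wide peaks held a median of 22 fragments at the summit (interval 21 to 23; quartiles 16 and 30) against 13 (12 to 13; quartiles 10 and 17) for narrower peaks. Their median fold was 10.35 (10.10 to 10.74) against 6.24 (6.19 to 6.29), and it was higher than that of the narrower peaks on 22 of 22 chromosomes. The median background was 1.31 fragments (1.14 to 1.32) against 1.12 (1.09 to 1.12). The ranges overlapped, although the highest folds were those of wide peaks. Wide peaks ran from a fold of 3.02 to 59.88 and from 9 to 115 fragments, and narrower peaks from 2.63 to 39.03 and from 5 to 100 fragments.

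Of the wide peaks, 631 had a fold of at least 10, or 53.5% (50.7 to 56.4), where 15.4% of all peaks on these chromosomes did so. A fold of at least 20 was seen in 94, or 7.97% (6.56 to 9.66), against 1.44% of all peaks. A pileup of at least 40 fragments was seen in 130, or 11.0% (9.36 to 12.9), against 2.19% of all peaks. Wide regions made up 41 of the 100 most significant peaks (31.9% to 50.8%), 168 of the top 500 and 522 of the top 2000, or 26.1%. Most peaks in each of these 3 lists were thus of 500 bp or less.

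Wide regions took 8 of the 10 most significant places. The strongest site of the list, chr7:4681417-4682026, was a wide peak of 610 bp with 115 fragments (94.9 to 138.0) and a −log10 p of 194.2. Its summit lay near the middle, 338 bp from one edge and 271 bp from the other. The second, chr17:42147906-42148413, passed the width limit by 8 bp, at 508 bp and a fold of 43.96, and the region chr5:170815246-170815763, at 518 bp and 48.21, was similar. Of the 10 most significant wide regions, 4 were on chromosome 7 and 3 on chromosome 17. Chromosome 7 held 6.87% of all wide peaks and 6.00% of narrower ones, and chromosome 17 held 8.06% and 6.83%. Chromosomes 1, 7 and 17 together held 4112 of the 17321 peaks of any fragment count. With 41 or more fragments, 52.8% of wide and 42.5% of narrower peaks were on these 3 chromosomes. High counts there were thus not particular to wide peaks. The 10 regions are described further here. Those over 900 bp were chr7:807264-808423 (1160 bp, 102 fragments), chr17:61850751-61851857 (1107 bp, 92 fragments), chr10:103892680-103893662 (983 bp, 87 fragments) and chr7:45025745-45026742 (998 bp, 86 fragments). The remaining regions were chr1:156024147-156024797 (651 bp, fold 33.50), chr17:49230663-49231317 (655 bp, fold 32.75) and chr7:150759273-150759786 (514 bp, fold 26.38). The fragment counts of the 10, from 82 to 115, had overlapping intervals for all neighbours in rank.

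Equally strong sites could be narrow. This is seen in 3 narrower peaks, picked after their values were seen. At chr17:75084615-75084968 a peak of 354 bp held 100 fragments (81.4 to 121.6), about as many as the 1160 bp region on chromosome 7. The peaks chr7:766045-766393, with 79 fragments in 349 bp, and chr17:34890681-34891054, with 73 fragments in 374 bp, were alike in this. In each of the 3 the farther edge lay at most 241 bp from the summit.

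Width rose with the number of fragments at the summit over all peaks. Spearman's rho between width and pileup was 0.59 over 17321 peaks, and 0.20 within the 1179 wide peaks. Both are descriptions, since the 2 measures come from the same fragments. The share of wide peaks was 0.213% (0.103 to 0.438) among peaks of 5 to 9 fragments, where it counted 7 of 3291. It was 1.59% for 10 to 12 fragments, 5.30% for 13 to 16, 11.5% (10.4 to 12.8) for 17 to 22, 20.8% for 23 to 30 and 26.8% for 31 to 40. At 41 to 115 fragments it reached 35.2% (30.4 to 40.4), or 123 of 349 peaks. Even in this strongest class the median width was 424 bp, below the limit.

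**Figure D2:**
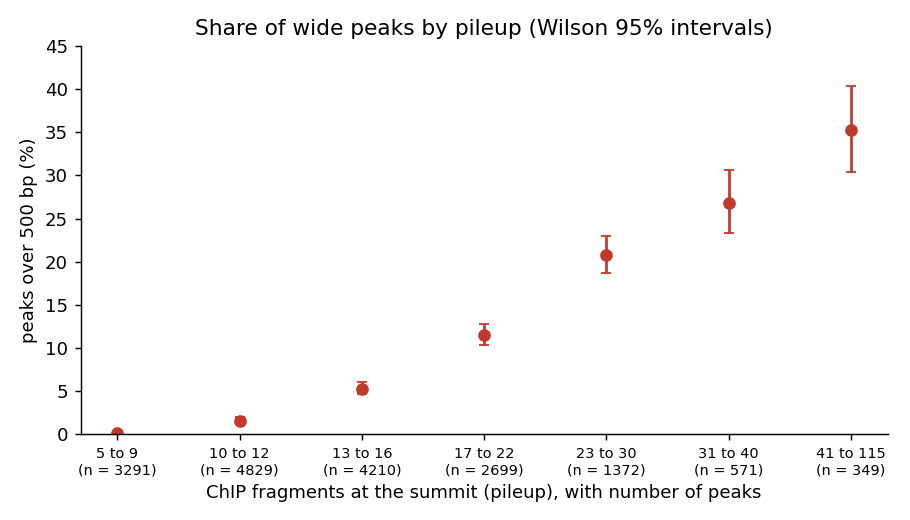
Share of peaks wider than 500 bp (y axis, percent) in 7 classes of the number of ChIP fragments at the summit (x axis, with the number of peaks in each). Points are shares and bars are Wilson 95% intervals; the share climbs from 0.213% to 35.2%.

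Up to 30 fragments, wide peaks were more frequent where the background was low. Width and background come from the same call, which draws a peak against the local background, so this too is a description. With the background split at 1 fragment, the share of wide peaks was higher at the lower background in 5 of 7 fragment classes, and in 4 of them, from 10 to 30 fragments, the interval of the difference lay above 0. At 23 to 30 fragments it was 28.2% against 18.0%, a difference of 10.2 points (5.22 to 15.5). At 31 to 40 fragments the difference was -0.98 points (-8.85 to 7.76) and at 41 or more it was -4.73 points (-15.9 to 7.87), so neither had a clear direction. In a finer split among peaks with 17 to 22 fragments, 21.3% (15.0 to 29.2; 27 of 127) were wide at the genome-wide background floor of 0.683 fragments. The share was 16.2% (13.7 to 19.1) above the floor up to 1 fragment, 9.51% (8.16 to 11.1) over 1 up to 2, and 6.87% (4.49 to 10.4; 20 of 291) over 2. Over all fragment counts the order was the opposite, from 5.56% (4.57 to 6.76) at the floor to 9.38% (7.73 to 11.3) over 2 fragments. Peaks at higher background also held more fragments, with a median of 18 over 2 and of 9 at the floor. The median background of wide peaks was lower than that of narrower peaks in the 5 classes of up to 30 fragments, for example 1.05 against 1.32 at 17 to 22. At 31 to 40 fragments both stood at 1.32, as they did at 41 or more.

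Wide regions with few fragments formed a small group. There were 84 with 12 fragments or fewer, 7.12% of the wide peaks, whereas 49.8% of narrower peaks were that low. Their median width was 550 bp and 3 of 84 were over 750 bp (3.57%, 1.22 to 9.98), against 33 of the 123 wide regions with 41 or more fragments (26.8%, 19.8 to 35.3). The 3 lowest folds of all wide peaks were 3.02 at chr6:4358693-4359213, 3.49 at chr7:107642472-107642993 and 3.57 at chr1:54411079-54411814. These held 12 to 14 fragments over backgrounds of 2.64 to 3.30, so low fold went with high background there. Picked after their values were seen, chr16:1822290-1823198 reached 909 bp with 10 fragments (4.80 to 18.4), and chr4:146101274-146102035 reached 762 bp with 9 (4.12 to 17.1).

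The shape of the wide regions differed from that of narrower ones in where the summit sat. In wide peaks the nearer edge was a median of 177 bp from the summit (171 to 182) and the farther edge 422 bp (416 to 429). In narrower peaks these distances were 85 and 129 bp. Taken as a share of the width, the nearer side made up a median of 29.0% in wide peaks (27.5 to 30.1) and 39.2% in narrower ones (38.9 to 39.4). The summit lay within 25% of the width from an edge in 456 wide peaks, or 38.7% (35.9 to 41.5), and in 13.1% (12.6 to 13.7) of narrower ones. The summit was on the lower-coordinate side of the centre in 51.6% of wide peaks (48.7 to 54.4) and in 53.0% of narrower ones (52.2 to 53.8). The width by itself bounds these distances, so that they too are descriptions.

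The farther edge lay more than 2 fragment lengths (284 bp) from the summit in 1133 wide peaks, where 11.4% of all peaks did so. It lay more than 284 bp off in 840 narrower peaks (5.20%). Both edges lay 284 bp or more from the summit in 140 wide peaks (11.9%, 10.2 to 13.8). The nearer edge showed a sharp boundary at 1 fragment length. It fell 122 to 141 bp from the summit in 225 wide peaks (19.1%, 16.9 to 21.4) but 142 to 161 bp from it in 73 (6.19%, 4.95 to 7.71), and 162 to 181 bp in 118. The narrower peaks had a drop at the same place, from 2169 peaks to 323. An edge within 1 fragment length of the summit is usual, found in 90.4% of all peaks and 94.3% of narrower ones. It was less frequent in wide peaks, at 426 of 1179 or 36.1% (33.4 to 38.9). The width itself bounds these shares and those of the farther edge. A peak of 284 bp or less always has an edge that near, and narrower peaks had a median width of 218 bp. In the 426 wide peaks with such an edge, the other edge lay a median of 455 bp (447 to 468) away. These regions were weaker than the 753 whose nearer edge lay farther out, with a median of 19 fragments (18 to 20) against 24 (23 to 25) and a fold of 9.14 against 11.16.

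**Figure D3:**
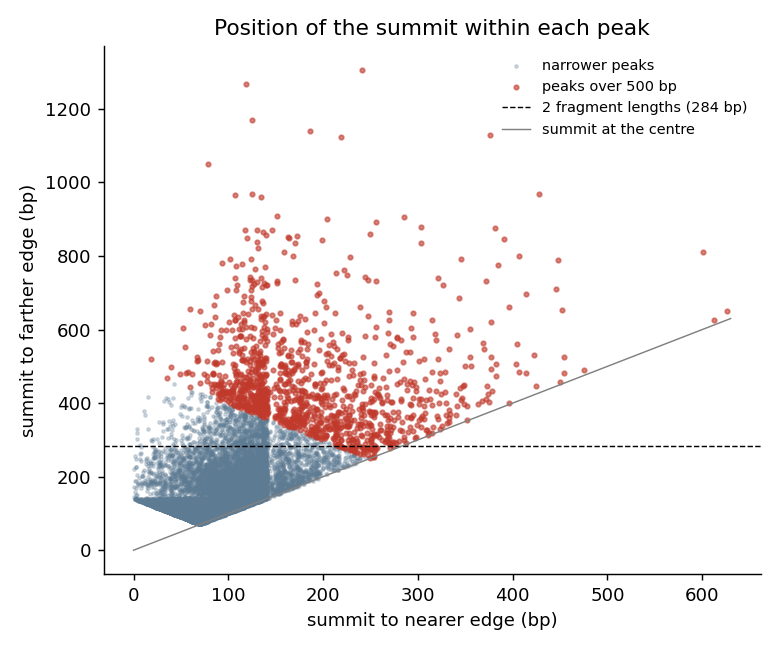
Each point is a peak, with the distance from summit to nearer edge (x axis, bp) against summit to farther edge (y axis, bp); red are the 1179 wide peaks, blue the narrower ones, the dashed line is 2 fragment lengths (284 bp) and the grey line marks centred summits. On the x axis, 225 wide peaks lie at 122 to 141 bp, 73 at 142 to 161 bp and 118 at 162 to 181 bp. In 753 wide peaks the nearer edge lies 142 bp or more from the summit. The farther edge reaches 1306 bp.

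Among peaks as called, wide regions were not more crowded than narrower ones by edge-to-edge distance. Stretches that the caller drew as 1 peak do not count as neighbours, so the comparison cannot show crowding inside a peak. Another peak lay within 1 kb of 382 wide peaks, 32.4% (29.8 to 35.1), against 32.8% of all peaks. The difference from narrower peaks was -0.42 percentage points (Newcombe interval -3.13 to 2.40), which includes no difference and bounds it to a few points. Among wide peaks the share showed no trend with width. It was 34.3% (29.7 to 39.3) up to 550 bp, 35.5% (27.1 to 44.9) at 801 to 1000 bp and 29.5% (18.2 to 44.2) above that. Among narrower peaks it went from 30.5% (28.3 to 32.8) at 142 bp to 36.3% (33.6 to 39.1) at 401 to 500 bp. At matched fragment counts the differences ranged from -8.86 points (-18.7 to 1.71) at 41 or more fragments to 23.7 points (-8.43 to 50.8) at 5 to 9 fragments, and each of the 7 intervals included no difference. At 10 kb wide peaks had fewer neighbours, 46.9% against 50.4%, a difference of -3.46 points (-6.39 to -0.50). At 100 kb the shares were 88.0% and 87.4%. Counted between summits, 25.3% of wide and 30.1% of narrower peaks had another summit within 1 kb, a gap of -4.86 points (-7.36 to -2.21). The distance between summits includes the part of each peak that lies between them. The part of this in the difference was not tested.

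**Figure D4:**
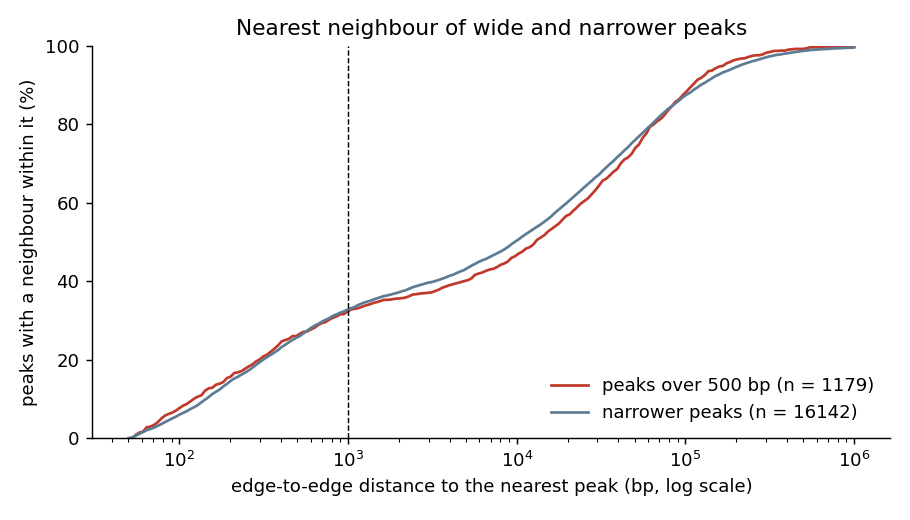
Share of peaks (y axis, percent) whose nearest other peak lies within the edge-to-edge distance on the x axis (bp, log scale), for the 1179 wide peaks (red) and the 16142 narrower ones (blue). The curves meet at 1 kb (dashed line; 32.4% and 32.8%), and the red curve runs below the blue one at 10 kb (46.9% and 50.4%).

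Where a wide region had a neighbour within 1 kb, the neighbour was usually an ordinary peak. Its median width was 234.5 bp and its median pileup 13 fragments, against 22 for the wide region itself, and it had the lower pileup in 301 of 382 cases (78.8%, 74.4 to 82.6). For narrower peaks with a neighbour within 1 kb this was 44.1% (42.8 to 45.4), and for all such peaks 46.4%. Of the 5298 narrower peaks with such a neighbour, 5261 had a summit not exactly at the centre. Their neighbours had about the same medians, 234 bp and 13 fragments, against 12 for the peaks themselves. Wide peaks hold more fragments to begin with, so the contrast describes the chosen peaks and not their neighbours. The neighbour of a wide region was itself wide in 25 cases, or 6.54% (4.47 to 9.48), close to the 6.80% (6.15 to 7.50) found for neighbours of narrower peaks. The summit lay on the neighbour's side of the centre in 164 of the 382 wide peaks, 42.9% (38.1 to 47.9). In the 5261 narrower peaks with a neighbour and a summit not exactly at the centre, it was 48.7% (47.3 to 50.01).

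Pairs of wide regions were few, but wide peaks were only 6.81% of all peaks. A nearest peak within 1 kb was wide about as often for wide peaks (6.54%) as for narrower ones (6.80%). In 32 wide peaks (2.71%, 1.93 to 3.81) another wide one lay within 1 kb, making 16 pairs. The 2 wide peaks closest together were chr18:9016761-9017315 and chr18:9017378-9017891, 62 bp apart, with folds of 9.77 and 16.003. The pair with the highest fragment count was chr7:150757695-150758502, of 808 bp and 23 fragments, and chr7:150759273-150759786, of 514 bp and 95 fragments, 770 bp apart. On chromosome 13 a region of 567 bp at chr13:91999848-92000414 lay 158 bp from one of 1140 bp at chr13:92000573-92001712, whose fold was 18.79. On chromosome 12, chr12:53399860-53400413 and chr12:53400555-53401180 were nearly equal, with 38 and 32 fragments. Within 10 kb, wide regions formed 34 groups of 2 and 1 group of 3, which left 1108 on their own. The group of 3 lay at chr1:155214339-155232429, with widths of 691, 565 and 763 bp and a best fold of 14.43. Counted per 1 Mb window, the most wide regions lay between 156 and 157 Mb of chromosome 1, with 8 of its 47 peaks, then between 155 and 156 Mb of the same chromosome (7 of 42) and 79 and 80 Mb of chromosome 17 (7 of 64). Of 2186 windows with any peak, 760 held a wide region. Windows with 5 or more numbered 18 and held 102 of the 1179 wide regions. The part of peak density in these counts was not tested.

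Wide regions were spread over the chromosomes much as all peaks were. Over 22 chromosomes the number of wide peaks followed the number of peaks (Pearson r = 0.97, Spearman rho = 0.95), and r was 0.95 without chromosomes 1 and 21. With the number of protein-coding genes r was 0.91. These correlations are descriptions over chromosomes that share 1 library. Gene density was taken as coding genes per Mb between the first and last peak of a chromosome. Between the share of wide peaks and this density, r was -0.05 and rho 0.03, and r was -0.26 without chromosomes 19 and 17. Between that share and a chromosome's median pileup, r was 0.49 and rho 0.53, and r was 0.36 without chromosomes 7 and 17. The interval of the share held the overall 6.81% on 19 chromosomes. It lay above on chromosome 1, where 150 of 1864 peaks were wide (8.05%, 6.90 to 9.37). It lay below on chromosome 14, with 23 of 528 (4.36%, 2.92 to 6.45), and on chromosome 22, with 19 of 433 (4.39%, 2.83 to 6.75). Gene-dense chromosome 19 stood at 6.49% (5.16 to 8.15). Per 100 coding genes, counts ran from 3.80 (2.41 to 5.70) on chromosome 14 to 8.88 (5.99 to 12.7) on chromosome 13 and 8.64 (6.86 to 10.7) on chromosome 7.

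**Figure D5:**
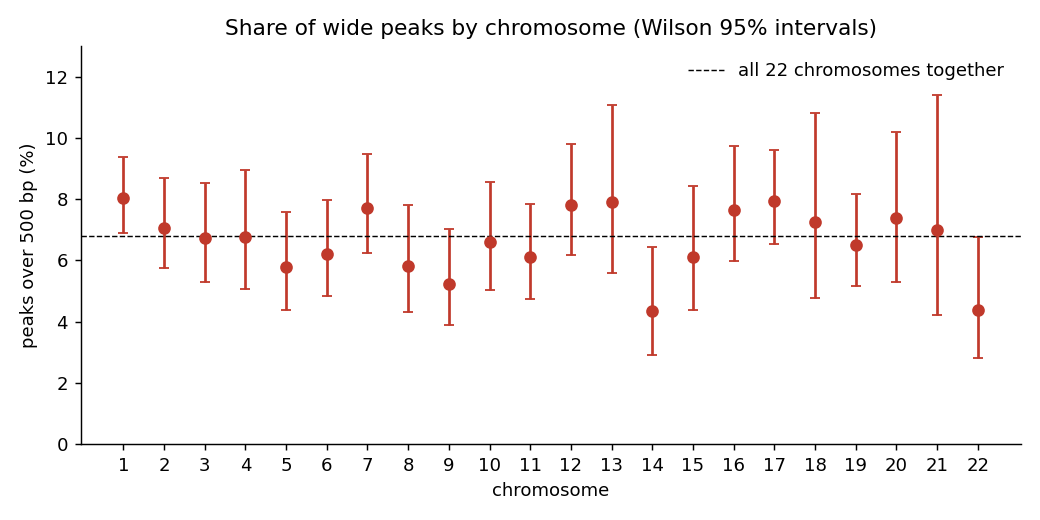
Share of peaks wider than 500 bp (y axis, percent) on each of chromosomes 1 to 22 (x axis), with Wilson 95% intervals; the dashed line is the share over all 22 chromosomes, 6.81%. The intervals of chromosomes 14 and 22 lie below the line, that of chromosome 1 lies above it, and the other 19 cross it.

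On chromosome 1 the wide peaks were uneven. After the longest peak-free stretch of the chromosome, which crosses the centromere, 91 of 951 peaks were wide (9.57%, 7.86 to 11.6), and before it 59 of 913 (6.46%, 5.04 to 8.25). The background moved with this, at a median of 1.41 fragments after the stretch and 1.03 before it, as did the pileup, at 16 and 13. Chromosomes 1, 7 and 17, where the background was high, together had 7.93% wide peaks (7.14 to 8.79; 326 of 4112) and the other 19 had 6.46% (6.05 to 6.89), a difference of 1.47 points (0.57 to 2.43). Their median pileups were 14 and 12 fragments. At matched fragment counts the 3 chromosomes had the lower share in 6 of 7 classes, and the higher share at 41 or more fragments. The shares were nearly equal at 5 to 9 fragments (0.212% and 0.213%) and at 31 to 40 (26.3% and 27.1%). With 13 to 16 fragments, 3.67% (2.695 to 4.98) of the peaks on the 3 chromosomes were wide and 5.85% (5.08 to 6.72) elsewhere. With 17 to 22, the shares were 9.15% (7.36 to 11.3) and 12.6% (11.1 to 14.1). The 2 intervals did not overlap at 13 to 16 fragments and overlapped narrowly at 17 to 22. Overlap of separate intervals does not show that 2 shares are equal, and intervals of the differences by class are not given here. With 41 or more, the shares were 40.4% (33.1 to 48.1) and 30.9% (24.7 to 37.8). The part of the background in these shares was not tested.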

How the data were processed

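The authors' deposited list holds the peaks of the MYC ChIP library in narrowPeak layout. MACS2 2.1.0, STAR 2.5.2a, Picard 2.7.1, SAMtools 1.3, bedtools and the build GRCh37 are listed, per the submitters' processing notes, without their roles. The rule by which the list was filtered is not given in the sources used here. The authors' deposited score equals 10 times the −log10 q, rounded down. The authors' deposited fold (a ratio) and −log10 p and −log10 q values describe the summit. Positions are printed 1-based.

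Width was end minus start. Summit pileup and background were recovered from fold and −log10 p, taking MACS2's fold, pileup + 1 divided by background + 1, and its p, the Poisson chance of more than the pileup. A whole pileup from 3 to 699 matched within 0.001 in 100% of peaks, and the procedure, tested on simulated data, recovered 100% of 2817 simulated peaks. Peaks within 0.0003 of the lowest background count as at the floor. Shares have Wilson intervals, differences of shares Newcombe intervals, counts exact Poisson intervals and medians order-statistic intervals, all at 95%. Total depth is unknown, and, with no molecular identifiers, fragments may be copies of 1 molecule. Coding genes per chromosome were counted in RefSeq (GRCh38.p14), of which no coordinates were used. The regions named were the 10 widest, the 10 most significant, the 3 lowest folds and those at the limit. The members and lists were chosen with earlier results of these data known. Of 8 planned results, 6 needed start sites or sequence in GRCh37 and were not computed, nor were the rules for naming genes applied. Python 3.11.15, NumPy 2.4.6, pandas 2.3.3, SciPy 1.17.1 and Matplotlib 3.10.9 were used.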

Additional observations from a re-analysis of the deposited data

How the results depend on the processing

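Over 39 alternatives, 18 values stayed inside the 95% interval of the reported one (counts: within 1.5 times), and 21 moved. In 15 of 15 alternatives for fold, pileup and background the median of the wide peaks was the higher. These alternatives cut the same peak call and did not match fragment counts. At matched counts of up to 30 fragments, the median background of wide peaks was the lower. With limits of 400, 750 and 1000 bp the number of wide peaks was 2336, 211 and 44, the share 13.5%, 1.22% and 0.254%, the median fold 9.34, 12.07 and 15.68 and the median pileup 20, 26 and 30.5, since these limits keep other peaks; at 1000 bp the background was 1.32. Among peaks at or above the median −log10 q the share was 12.4% and the median fold of the 1081 wide peaks left was 10.81, since weak peaks of both kinds drop out. Joining peaks within 100 bp gave 1474 wide regions and a share of 8.78%. Without chromosomes 1, 7 and 17 the median pileup was 20 and the background 1.03, the cause of which was not tested. The difference in neighbours within 1 kb, whose alternatives were chosen after seeing the data, was above 0 in 4 of 8. It reached 1.78 points (-0.26 to 3.87) at a limit of 400 bp. It was -3.26 points (-14.7 to 11.4) over 1000 bp and -4.86 points (-7.36 to -2.21) between summits. Every interval except that between summits included 0, so these edge-to-edge settings resolved no direction. The share of wide peaks fell to 26.1% in the top 2000. Alternatives on start sites and sequence were not run, since they need a GRCh37 annotation or genome. No paired analysis was possible because each group has 1 library and no result comes from a test between groups. No wide peak had fewer than 9 fragments, and the lowest pileup called on these chromosomes was 5.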

Other observations

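Outside chromosomes 1 to 22 the list held 25 more peaks over 500 bp. Chromosome X had 17 among 311 peaks (5.47%, Wilson 95% interval 3.44 to 8.58), with a median fold of 12.07 and 21 fragments at the summit, against 5.94 and 11 for its narrower peaks. The widest peak of the whole list was on this chromosome, at chrX:2406696-2408739, within the region that X shares with Y. It measured 2044 bp, with 21 fragments (Poisson 95% interval 12.999 to 32.1) over the background floor and a fold of 13.07, and its summit lay 1220 bp from one edge and 823 bp from the other. On unplaced contigs 8 of 26 peaks were over 500 bp (30.8%, 16.5 to 49.99). The widest of these, on GL000220.1 at 117832 to 119297, was 1466 bp wide with a fold of 2.61 over a background of 79.9 fragments. Those on GL000195.1 (30510 to 31589) and GL000205.1 (86051 to 87080) had folds of 8.01 and 8.36 over a background of 4.62.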
